A study of Mus musculus with 4 samples.

Results

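Cadherins and protocadherins are calcium-dependent adhesion proteins of the plasma membrane. Their expression was followed here in E12.5 mouse ureters in which the secretion of WNT ligands was blocked. The genes were taken by their name on the array, Cdh with a number or Pcdh with letters and digits, without Cdh1, Cdh3 and Cdh5, which mark epithelium and endothelium. Of 67 such names, 64 had a probe well above background on all 4 arrays in the control or in the treated RNA, and these 64 are described among 22455 genes tested. The 3 others, Cdh7, Cdh23 and Cdh24, were below this limit. The nearest to it were Cdh24 outside, with mean signals of 8.56 in the controls and 7.01 after treatment and above background on 3 of 4 arrays, and Pcdhb1 inside, with 9.05 and 8.04. Ureters of wild-type NMRI embryos, whose sex was not determined, were explanted and kept for 18 h in serum-free medium with 10 µM IWP-2 or, as control, with its solvent DMSO (2:1000). IWP-2 inhibits Porcupine, an enzyme without which WNT ligands do not leave the cell, and it reaches epithelium and mesenchyme alike. Each of 4 two-colour arrays compared RNA of a pool of treated ureters with RNA of a pool of control ureters, with the treated RNA in red on arrays 1 and 3 and in green on arrays 2 and 4. The methods of the study count 4 pools of either kind and a legend counts fewer, so that the spread between arrays may be technical in part.

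Classical cadherins join neighbouring cells at adherens junctions and bind catenins inside the cell, among them β-Catenin, which is also the transducer of canonical WNT signalling. They comprise type I, such as N-cadherin (Cdh2), and type II, such as Cdh6 and Cdh11. Protocadherins lack the catenin-binding tail. Delta protocadherins are encoded by single genes scattered over the genome. Clustered protocadherins, best known as identity tags of neurons, are encoded side by side in an alpha, a beta and a gamma cluster, in which variable exons have promoters of their own and alpha and gamma transcripts end in constant exons shared by their cluster.

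The sequences upstream of 4 genes are shown here. Of these, Pcdh8 and Cdh9 gave the largest rises and Pcdh18 the largest fall. Cdh6 rose too, lies on the chromosome of Cdh9 and shares a run of 15 bases with it. They are the 250 bases before the start in the RefSeq promoter table (GRCm38.p6), printed 5′ to 3′ on the strand of the gene. Of the 64 genes, 19 were compared in this way, matched by symbol. The clustered protocadherins, Cdh2, Pcdh1 and Pcdh12 are not among the 19. Neither are Cdh4, Cdh11, Cdh13, Cdh16, Cdh17, Cdh19 and Pcdh11x. Counts among the 19 therefore do not describe these genes. Cdh6 was read from chr15:13173676-13173925 (minus strand) and Cdh9 from chr15:16728665-16728914 (plus strand). Capitals mark a run of 15 bases that both hold.
Cdh6: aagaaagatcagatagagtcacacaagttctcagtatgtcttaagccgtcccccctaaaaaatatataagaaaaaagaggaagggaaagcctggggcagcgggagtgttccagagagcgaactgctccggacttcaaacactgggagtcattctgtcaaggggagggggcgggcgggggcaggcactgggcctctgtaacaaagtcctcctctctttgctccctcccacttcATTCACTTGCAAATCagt
Cdh9: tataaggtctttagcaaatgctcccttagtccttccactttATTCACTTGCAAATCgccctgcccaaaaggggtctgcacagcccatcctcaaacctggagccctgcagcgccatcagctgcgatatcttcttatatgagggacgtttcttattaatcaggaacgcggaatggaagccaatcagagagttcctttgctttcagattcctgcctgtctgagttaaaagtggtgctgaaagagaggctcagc

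The run ATTCACTTGCAAATC, searched on both strands, was present in 2 of the 32851 promoters of the table, those of Cdh6 and Cdh9. It began 18 bases before the start of Cdh6 and 209 bases before that of Cdh9. Of the 171 pairs of the 19 promoters, 1 other pair (Cdh26 and Pcdh7) had a run of this length in common, a repeat of C and T. Pcdh8, read from chr14:79771313-79771562 (minus strand), rose the most, and Pcdh18, read from chr3:49757317-49757566 (minus strand), fell the most. Capitals mark a run of 9 bases found in both.
Pcdh8: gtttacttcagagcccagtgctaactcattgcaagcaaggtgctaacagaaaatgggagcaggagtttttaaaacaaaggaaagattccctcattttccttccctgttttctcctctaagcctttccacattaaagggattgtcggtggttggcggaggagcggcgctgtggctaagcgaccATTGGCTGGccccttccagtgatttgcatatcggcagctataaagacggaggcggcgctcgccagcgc
Pcdh18: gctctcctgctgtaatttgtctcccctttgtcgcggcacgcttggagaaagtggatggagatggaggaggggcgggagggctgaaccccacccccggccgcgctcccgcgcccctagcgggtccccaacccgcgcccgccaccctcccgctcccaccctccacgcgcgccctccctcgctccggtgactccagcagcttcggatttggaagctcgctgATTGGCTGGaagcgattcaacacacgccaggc

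The run ATTGGCTGG, on either strand, was present in 0.959% of all promoters and in 4 of the 19, Cdh18, Pcdh8, Pcdh17 and Pcdh18, of which a pair rose and a pair fell. Each occurrence contains GCCAAT on the other strand, the CCAAT box, which alone was found in 13.5% of all promoters and in 8 of the 19. The word AACAAAG and its variants with AT, TA or TT in place of the first AA, to which TCF and LEF factors of the WNT pathway can bind, were present on either strand in 14.8% of all promoters and in 4 of the 19, those of Cdh6, Cdh26, Pcdh7 and Pcdh8. The marked runs were chosen after the sequences had been compared. A match describes the letters of the window and not a bound site.

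Changes are given as log2 ratios of IWP-2 over control, as the mean of the 4 arrays ± SD between them. A gene is said to have risen or fallen where the p from limma, adjusted over all genes tested, was under 0.05. Among all genes 33.1% passed the test, with 18.1% rising and 15% falling. Of the 64 cadherin and protocadherin genes, 18 rose, 25 fell and 21 did not pass the test. With the 8 channels as separate samples, without the pairing on an array, 11 rose, and with the rounded fold changes of the deposited series table there were 6 rises and 12 falls. Calls among all genes were fewer there too. They went from 4068 rises and 3360 falls to 2040 and 2065 without the pairing, and to 1833 and 2050 with the series table. The median size of the change was 0.22 over these genes and 0.10 over all genes. In such bulk RNA, fewer cells of a type and less RNA per cell cannot be told apart.

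The classes of the family differed in direction. Of 13 classical cadherins, 8 rose and 2 fell, and of 9 delta protocadherins, 7 rose and 2 fell. Of 35 clustered protocadherins, 20 fell and 1 rose. With the series table the counts were smaller, at 4 rises and 0 falls (classical), 2 and 1 (delta) and 0 and 10 (clustered), and without a dye term 13 clustered genes fell. Among all genes the falls went from 3360 to 2050 with the series table and to 2551 without a dye term. The rises went from 4068 to 1833 and 2965. The median log2 ratio of the classical cadherins was 0.24, 0.17, 0.18 and 0.22 on arrays 1 to 4 (mean 0.20 ± 0.03), and that of the delta protocadherins was 0.32, 0.31, 0.21 and 0.24 (0.27 ± 0.05). That of the clustered protocadherins was -0.21, -0.23, -0.15 and -0.16 (-0.19 ± 0.04). The classical and delta medians thus lay above 0 and the clustered medians below 0 on each array, in both dye orders, while the median of all genes was 0.00 ± 0.01. The 7 remaining genes, which belong to none of these classes, had a median of 0.02 ± 0.04.

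**Figure D1:**
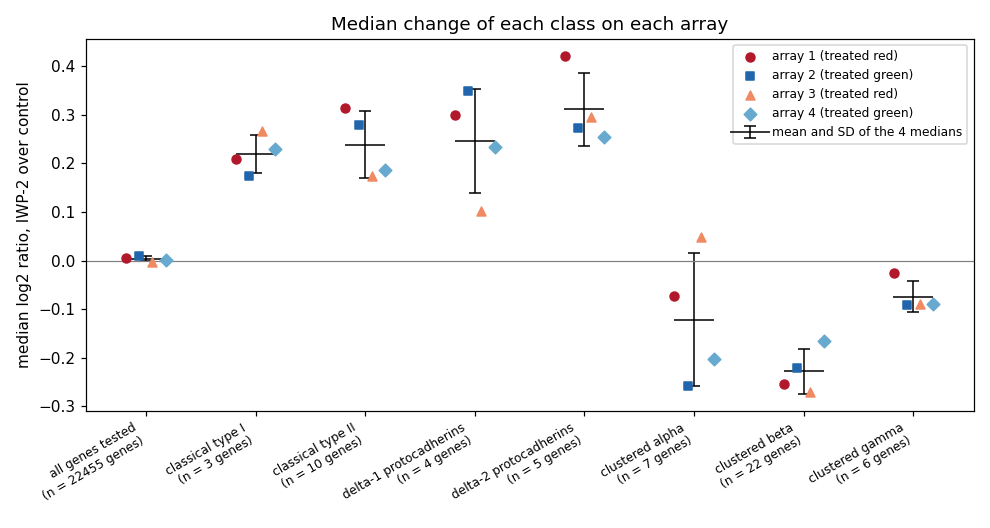
Median log2 ratio of IWP-2 over control (y axis) for each class of cadherin and protocadherin genes and for all genes tested (x axis). Points are the 4 arrays and bars the mean ± SD of their medians, which run from 0.31 for the delta-2 protocadherins to -0.23 for the beta cluster, beside 0.00 for all genes.

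A called change of 0.4 or more was seen in 6.85% of all genes, 3.15% upwards and 3.7% downwards, and in 6 genes of the family upwards and 3 downwards. A change of at least 2-fold, which 0.174% of all genes showed upwards and 0.735% downwards, was seen in 1 gene of the family. This was Pcdh8 (paraxial protocadherin), a delta-2 protocadherin known from cell movements in the gastrula and from the somites. Its processed signal, in arbitrary units, was 1235, 1425, 1957 and 1692 in the controls of arrays 1 to 4 and 3545, 3784, 4396 and 4905 after treatment. Every treated value lay above every control value. The log2 ratios were 1.49, 1.41, 1.13 and 1.53 (1.39 ± 0.18), a 2.62-fold rise (adjusted p = 5.15e-05). The probe for Pcdh8 maps to chromosome 14, 80166728 to 80166787 on mm9, the build of all probe positions here. The promoter of this gene, printed above, holds the word AACAAAG, which with its variants was found in 14.8% of all promoters. Whether it bears on the rise was not tested.

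Cdh9, a type II cadherin best known from neurons, read 184, 204, 288 and 279.8 in the controls and 304, 534, 617 and 521 in the treated RNA. Again the groups did not overlap. The log2 ratios were 0.66, 1.31, 1.02 and 0.83 (0.96 ± 0.28, adjusted p = 0.000875), so that the rise was present on each array and smallest on array 1.

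Pcdh18, a delta-2 protocadherin and the most intense probe of its class, fell the most. It read 7134, 5846, 7699.8 and 7852 in the controls and 4116, 3999.6, 4733 and 4993 in the treated RNA. The groups were apart on all arrays. The log2 ratios were -0.80, -0.52, -0.73 and -0.63 (-0.67 ± 0.12), a 1.59-fold fall (adjusted p = 0.000165).

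Pcdh19, an X-linked delta-2 protocadherin, read 1181, 1208, 1693 and 1474 in the controls and 1621, 1825, 2134 and 2306 in the treated RNA. The ranges overlapped, as the control of array 3 lay above the treated RNA of array 1, but within each array the treated RNA was higher. The log2 ratios were 0.42, 0.59, 0.30 and 0.64 (0.49 ± 0.16, adjusted p = 0.000552).

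Cdh6 (K-cadherin), a type II cadherin of the renal vesicle and proximal tubule of the kidney, read 1175, 1159.8, 1353 and 1607 in the controls and 1585, 1554, 1933 and 2202 in the treated RNA. It rose by nearly the same amount on each array, with 0.43, 0.42, 0.49 and 0.44 (0.44 ± 0.03, adjusted p = 0.000588). This was the smallest spread of all classical and delta genes. A further probe for Cdh6 gave 0.48.

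Cdh10, a type II cadherin of the nervous system, read 228, 206, 282 and 335 in the controls and 319.9, 315, 409 and 398 in the treated RNA. All log2 ratios were above 0, at 0.44, 0.57, 0.47 and 0.22 (0.42 ± 0.15, adjusted p = 0.00381). Pcdh7, the most intense of the delta-1 protocadherins, was less even. It read 777, 726, 1017 and 857 in the controls and 987, 1132, 1027 and 1392 in the treated RNA, with log2 ratios of 0.34, 0.63, -0.01 and 0.68 (0.41 ± 0.31, adjusted p = 0.00412). On array 3 the channels were thus alike. Its other probes had means of 0.35 and 0.49.

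Cdh22, a type II cadherin of brain and pituitary, fell from 48.0, 45.9, 77.9 and 58.2 in the controls to 35.3, 23.8, 31.9 and 39.6. The groups did not overlap. The log2 ratios were -0.26, -0.62, -0.92 and -0.40 (-0.55 ± 0.29, adjusted p = 0.00916), and are understated, as for all dim probes, by the offset of 50 added to the signals. Pcdh17, a delta-2 protocadherin, read 590.5, 365, 619.7 and 554 in the controls and 473, 297, 363 and 432 in the treated RNA. Its log2 ratios of -0.32, -0.29, -0.76 and -0.37 (-0.43 ± 0.22, adjusted p = 0.00593) were all below 0, with array 3 apart from the others.

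**Figure D2:**
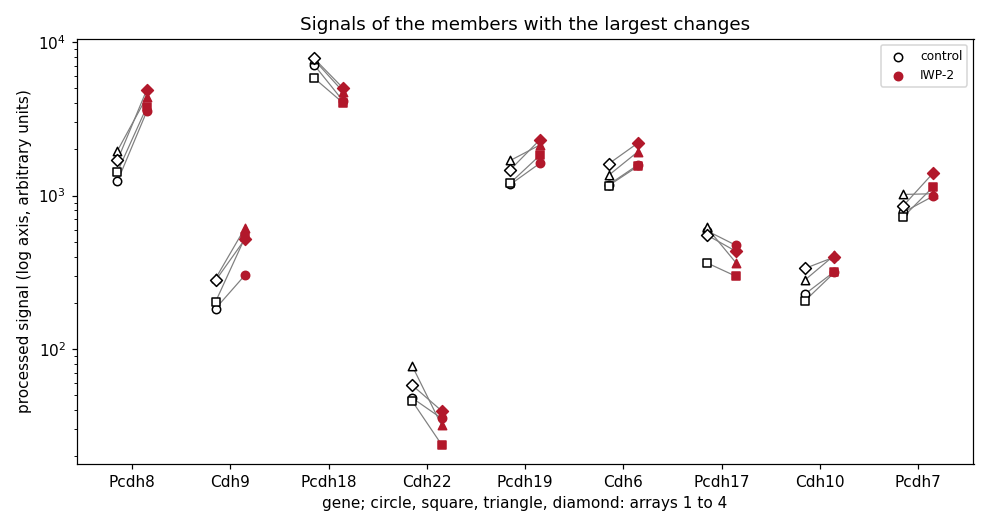
Processed signal in arbitrary units (y axis, log scale) of the 9 genes with a called change of 0.4 or more (x axis), with open symbols for the control, filled symbols for IWP-2 and a symbol shape and a line for each of the 4 arrays. Pcdh8, Cdh9, Pcdh18 and Cdh22 have no overlap between the channels, and the lines of Pcdh7 include a flat one, array 3, at 1017 and 1027.

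Across the family, control and treated signals were without overlap for 10 of the 64 genes, beside 6.56% of all genes (2.76% higher and 3.8% lower after treatment). Pcdh8 and Cdh9 were higher in the treated RNA. Cdh20, Cdh22, Pcdh18, Pcdhb5, Pcdhb7, Pcdhb13, Pcdhb16 and Pcdhb22 were lower. For the remaining genes the groups overlapped, and their calls rest on the ratio within each array.

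All 3 type I cadherins rose. Cdh2 (N-cadherin), the junctional cadherin of mesenchymal and neural cells, read 3813, 3907, 5118 and 4915 in the controls and 4218, 4854, 5666 and 6175 in the treated RNA. Its log2 ratio was 0.23 ± 0.11 (adjusted p = 0.00569) and was above 0 on each array. A second probe for Cdh2 gave 0.18 ± 0.64, a spread larger than its mean. Cdh4 (R-cadherin) rose by 0.28 ± 0.11 and Cdh15 (M-cadherin of muscle) by 0.15 ± 0.11 (adjusted p = 0.00446 and 0.0325). The rise of Cdh15 did not pass the test when any 1 of arrays 1 to 4 was left out, with values of 0.13 to 0.16. Of the skeletal myoblast markers Myod1, Myf5, Myog, Pax3 and Pax7, Myf5 and Myog were below the background limit and 0 of the 3 others passed the test, with a summed signal of 47.9 to 106 in the controls and 53.3 to 77.5 in the treated RNA.

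Of 10 type II cadherins tested, 5 rose and 2 fell. Beside Cdh6, Cdh9 and Cdh10, the neural cadherins Cdh12 (0.28 ± 0.10) and Cdh18 (0.37 ± 0.14) rose. Cdh20 fell with Cdh22, by -0.28 ± 0.09, at control signals of 18.5 to 28.3. Cdh11 (OB-cadherin), a cadherin of mesenchyme and the most intense of this type, read 5665, 5150.0, 6690.2 and 7864 in the controls and 5729.8, 5415, 6299 and 8182 in the treated RNA. Its log2 ratios of -0.00, 0.09, -0.12 and 0.08 (0.01 ± 0.10, adjusted p = 0.842) lay on both sides of 0. Cdh8 had 0.08 (adjusted p = 0.206). Cdh19, a cadherin of Schwann cell precursors, had 0.52, 0.59, -0.11 and 0.16 (0.29 ± 0.33, adjusted p = 0.0968) and would pass without array 3 (0.45) or array 4 (0.40). Of 6 neural crest and glia markers 3 rose, with a median of 0.24 ± 0.17 and a summed signal of 7306 to 12397 in the controls and 9160 to 14701 in the treated RNA, and their part in these values was not tested.

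Cdh6, Cdh9, Cdh10, Cdh12 and Cdh18 are neighbours. Their probes lie on chromosome 15 between 12960945 and 23404110, a stretch of 10.4 Mb, and are the only family members tested on that chromosome. All 5 rose. The 13 other features tested in that stretch had a median of 0.05, and 1 of them rose and 0 fell. Of the other type II cadherins 0 rose.

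The delta protocadherins all passed the test. The 4 members of delta-1 rose, with Pcdh7 followed by Pcdh11x (0.32 ± 0.07, with further probes at 0.07 ± 0.07 and 0.35 ± 0.32), Pcdh1 (0.20 ± 0.14) and Pcdh9 (0.14 ± 0.15). Their adjusted p were 0.00314, 0.0384 and 0.0415. The calls of Pcdh1 and Pcdh9 were weak, since Pcdh1 did not pass without array 1 (0.17), 2 (0.13) or 3 (0.22), nor Pcdh9 without any 1 of the 4 (0.12 to 0.17). Of delta-2, Pcdh8, Pcdh19 and Pcdh10 (OL-protocadherin, 0.37 ± 0.16, adjusted p = 0.00302) rose, and Pcdh17 and Pcdh18 fell, each alike on 4 of 4 arrays. Pcdh10 and Pcdh18 lie on the same chromosome, 3, and moved in opposite directions, as did Pcdh8 and Pcdh17 on chromosome 14.

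Members outside these classes had means of -0.30 to 0.24. Cdh13 (T-cadherin), which is held in the membrane by a lipid anchor, fell by -0.30 ± 0.15 (adjusted p = 0.0038). Cdh16 (Ksp-cadherin), a cadherin of kidney and ureteric epithelium, was the most intense of the Cdh genes here and read 16206, 16412, 18083 and 18017 in the controls and 16521, 20853, 23471 and 21202 in the treated RNA. Its log2 ratios were 0.03, 0.32, 0.38 and 0.22 (0.24 ± 0.15, adjusted p = 0.0285), so that array 1 showed next to no change, and the call was lost without array 2 (0.22) or array 3 (0.15). Cdh17 (LI-cadherin) had 0.14 ± 0.17 (adjusted p = 0.0486) and did not pass without array 1 (0.13), 2 (0.11) or 3 (0.16). Cdh26, Pcdh15 and Pcdh20 did not pass, with -0.06, -0.03 and 0.12, nor did Pcdh12 (VE-cadherin-2) of endothelium, with 0.12, 0.27, 0.17 and 0.00 (0.14 ± 0.11, adjusted p = 0.092, and 0.21 without array 4, where it passed). Pcdh20 is the single member that was above background on all arrays in 1 group only, the treated RNA (13.2 against 10.6 in the controls).

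**Figure D3:**
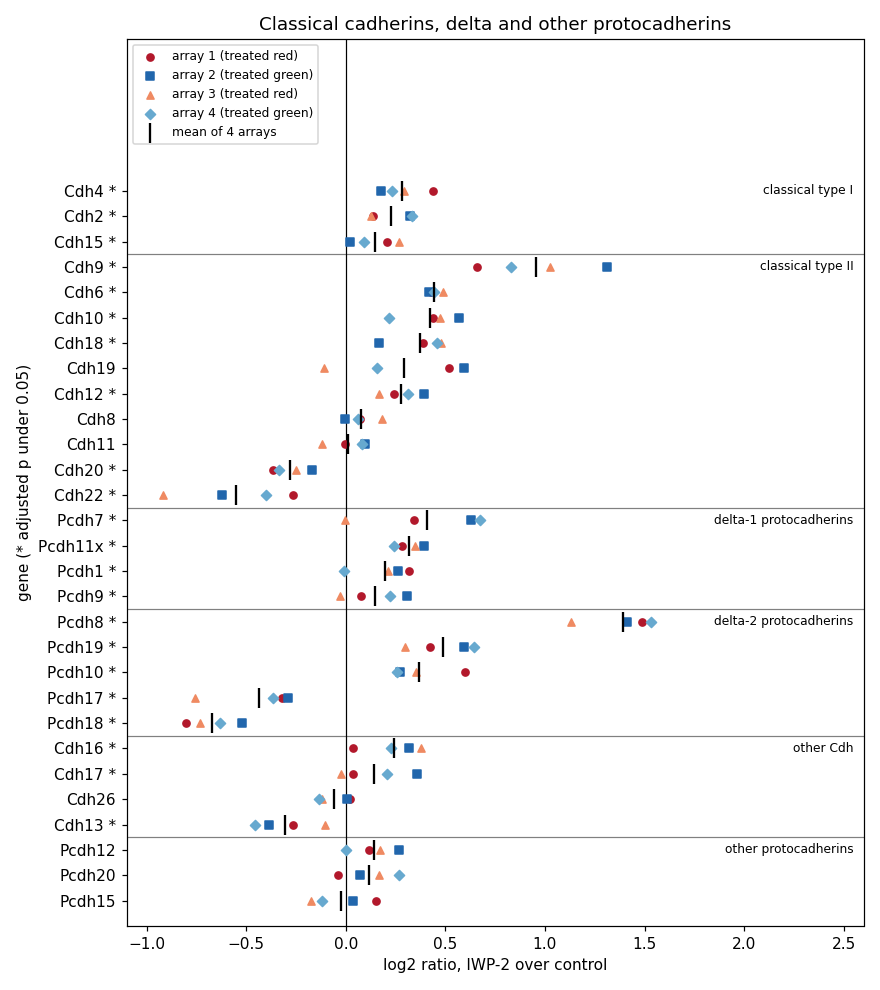
Log2 ratio of IWP-2 over control (x axis) of each classical, delta and other member (y axis), with a point for each array, a bar at the mean and an asterisk for genes past the test. The type II genes run from 0.96 for Cdh9 to -0.55 for Cdh22, and the delta-2 genes from 1.39 for Pcdh8 to -0.67 for Pcdh18.

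The clustered protocadherins changed mostly in the same direction. Of 35 genes 34 had a mean below 0 and 20 were below 0 on all 4 arrays. Over all genes tested the median of the means was 0.00. The share of all genes below 0 on all 4 arrays was not counted. With the probes and the offset used, 0 of them reached 0.4. With processed signals, which have no offset, Pcdhb13 gave -0.57, Pcdhb5 -0.54, Pcdha4 -0.49 and Pcdhb2 -0.41. The genes of the beta cluster consist of a single coding exon each. Of these 22 genes 15 fell, 0 rose and all 22 had a mean below 0, between -0.39 and -0.05. The median was -0.25, -0.22, -0.27 and -0.17 on arrays 1 to 4 (-0.23 ± 0.05).

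Pcdhb5 had the largest mean fall of the cluster. Its signals of 49.1, 50.0, 53.4 and 75.6 in the controls and 35.4, 31.9, 40.5 and 48.5 in the treated RNA did not overlap. The log2 ratios were -0.32, -0.46, -0.30 and -0.49 (-0.39 ± 0.09, adjusted p = 0.000833). Pcdhb22, the last gene of the cluster, changed by nearly the same amount on every array (-0.31 ± 0.03, adjusted p = 0.00204). Pcdhb17, the most intense, read 1179, 1068, 1277 and 1364 in the controls and 970.1, 917, 1128 and 1219.6 in the treated RNA, with -0.30, -0.20, -0.20 and -0.16 (-0.22 ± 0.06, adjusted p = 0.00869). Pcdhb10, Pcdhb7, Pcdhb13, Pcdhb19, Pcdhb2, Pcdhb16, Pcdhb14, Pcdhb20 and Pcdhb3 also fell, by means of -0.35 to -0.22.

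Weaker calls among the beta genes were those of Pcdhb21, Pcdhb6 and Pcdhb18. Pcdhb21 was lost without array 1 (-0.27), 2 (-0.14) or 3 (-0.19), Pcdhb6 without array 1 (-0.20) or 2 (-0.17), and Pcdhb18 without any of arrays 1 to 3 (-0.18 to -0.15). Pcdhb4, Pcdhb8, Pcdhb9, Pcdhb15, Pcdhb11, Pcdhb12 and Pcdhb1 did not pass the test, with means of -0.19 to -0.05. Of 14 beta genes with a mean control signal over 100, 12 fell (median -0.24), and of the 8 others 3 fell (median -0.14). The difference between bright and dim genes was not tested, and the offset draws dim genes towards 0.

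In the alpha cluster 3 of 7 genes fell and 0 rose. Its median was -0.07, -0.26, 0.05 and -0.20 on arrays 1 to 4 (-0.12 ± 0.14), thus low on the arrays with the treated RNA in green and near 0 on those with it in red. Pcdha4 shows this split, with -0.07, -0.48, 0.05 and -0.36 (-0.22 ± 0.25, adjusted p = 0.0131), and its call was lost without array 1 (-0.19) or 2 (-0.18). Pcdha11 had -0.16 (adjusted p = 0.0319) and was lost without array 1, 2 or 3 (-0.18 to -0.13). Both Pcdha4 and Pcdha11 were dim, with mean control signals of 18.4 and 15.8. Over all 22455 genes the dye term was past the threshold of limma for 0 genes. At an unadjusted p under 0.05 there were 4233, a larger share than the 0.05 that chance gives. Among the alpha genes the dye term, as log2 of red over green, ran from -0.01 for Pcdhac1 to 0.20 for Pcdha4. It was 0.16 for Pcdha8 and 0.15 for Pcdha9. Pcdhac2 was lower on every array, with 661, 620.2, 807 and 832 in the controls and 595, 511, 669 and 692 in the treated RNA (-0.25 ± 0.06, adjusted p = 0.0062). Its probe lies 41.5 kb beyond its other probe, at the 3′ end of the cluster, where the alpha transcripts share their constant exons, so that it may read the cluster as a whole. The other probe had -0.59 ± 0.34. Pcdha8, Pcdha9, Pcdha12 and Pcdhac1 had -0.15, -0.07, -0.08 and -0.08 and did not pass.

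Of 6 genes of the gamma cluster 2 fell and 1 rose, and the median was -0.07 ± 0.03, the nearest to 0 of the 3 clusters. Pcdhga1 (-0.20, adjusted p = 0.0347) was lost without array 1 (-0.13) or 4 (-0.16) and Pcdhgb1 (-0.15, adjusted p = 0.0476) without array 2 (-0.14), 3 (-0.10) or 4 (-0.16). Both were dim, with mean control signals of 31.5 and 18.4. Pcdhga5, Pcdhga10 and Pcdhgc5 had -0.12, -0.07 and -0.05. The 1 clustered rise was that of the probe used for Pcdhga9. It read 6727, 8137, 10456 and 9215 in the controls and 8185, 8844, 10969 and 10712 in the treated RNA. Its log2 ratios were 0.23, 0.18, -0.00 and 0.27 (0.17 ± 0.12, adjusted p = 0.0472), and the call was lost without array 1 (0.11), 2 (0.19) or 4 (0.14). This probe lies 22.1 kb past that of Pcdhgc5, at the 3′ end of the gamma cluster with its constant exons. The second probe of Pcdhga9 lies there too and had 0.01 ± 0.14. Both may thus read the cluster as a whole, and no probe of Pcdhga9 outside this end was measured. The probes at the 3′ ends thus gave -0.25 for alpha and 0.17 and 0.01 for gamma, while the others used for both clusters had means below 0.

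**Figure D4:**
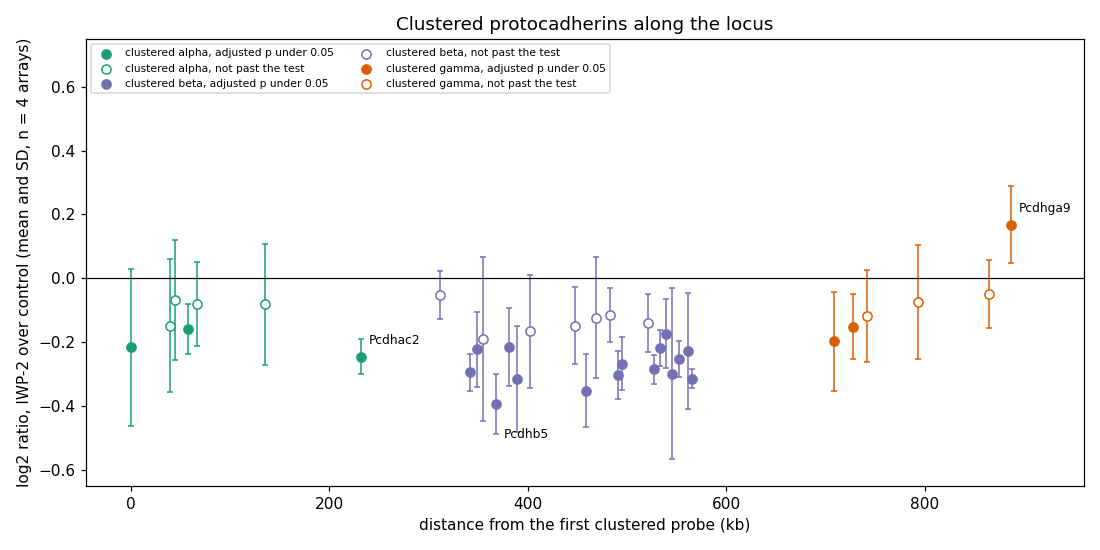
Log2 ratio of IWP-2 over control (y axis) of the 35 clustered protocadherins in the order of their probes, by the distance in kb from the first alpha probe (x axis). Points are means of the 4 arrays, filled for genes past the test, and bars the SD. The beta genes all lie between -0.39 and -0.05, and Pcdhga9 at the right end is the single mean above 0, at 0.17.

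The 35 probes span 0.887 Mb of chromosome 18, between 37114742 and 38001437. Among the 5 other features tested within this stretch 3 fell and 0 rose (median -0.18). Outside it on the same chromosome lie Cdh2, Pcdh1 and Pcdh12, with means of 0.23, 0.20 and 0.14. Clustered genes resemble each other. Over the 595 pairs of their probes at most 29 of the 60 bases were identical in any ungapped alignment with an overlap of 30 bases or more. This compares probes with each other only. Whether a probe also binds transcripts of another clustered gene was not tested. Of genes known to act on the promoters of these clusters, Ctcf and Smchd1 did not pass the test (-0.07 and -0.06, adjusted p = 0.268 and 0.276). Of the 9 such genes listed, 22.2% passed the test, beside 33.1% of all genes. Setdb1 fell (-0.12) and Rad21 rose (0.14), calls that were each lost when any 1 of arrays 1 to 4 was left out (-0.14 to -0.11 and 0.11 to 0.16).

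The catenins and junction partners listed attach to classical cadherins inside the cell, directly or through other proteins. Of 10 tested, 2 rose and 1 fell, a share near that of all genes (33.1%), with a median of 0.05 ± 0.07. Ctnnb1 (β-Catenin) had 0.06 ± 0.19 (adjusted p = 0.312). Plekha7, a protein of the apical junction of epithelia, rose by 0.42 ± 0.05, and Ctnna2 (αN-Catenin) fell by -0.40 ± 0.14 (adjusted p = 0.000693 and 0.00385). Of 7 genes for the shedding of cadherins 3 rose and 0 fell (42.9% called, beside 33.1% of all genes, median 0.18 ± 0.07). Of these rises, that of Furin was lost without array 1 or 4.

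Other members of the cadherin superfamily moved in both directions. Of 18 tested, 7 rose and 2 fell (50% called, beside 33.1% of all genes), with a median of 0.12 ± 0.05. Their summed signal was lower in the treated RNA on each array. It was 35771, 36771, 49264 and 40960 in the controls and 31554, 31469, 38142 and 39592 after treatment. The large atypical cadherins of the Fat group split, as Fat3 rose by 0.70 ± 0.05 and Fat1 fell by -0.64 ± 0.17 (adjusted p = 0.000124 and 0.000694). Celsr1 and Celsr3, vertebrate relatives of the planar polarity gene Flamingo, rose by 0.56 ± 0.18 and 0.47 ± 0.20. Cdhr1, a cadherin of photoreceptors, had 0.59 ± 0.17 at control signals of 4.48 to 8.35, near the background limit. Its value ran from 0.48 to 1.48 over the alternatives, and its call was lost with the series table (adjusted p = 0.183 in limma).

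WNT target genes served as a check of the treatment, and 6 of 7 fell. Axin2 fell by -1.56 ± 0.09 (adjusted p = 1.22e-05), Sp5 by -2.72 ± 0.28, Nkd1 by -1.59 ± 0.08, Lef1 by -1.47 ± 0.16, Tcf7 by -1.31 ± 0.05 and Notum by -0.72 ± 0.29. Their summed signal was 8510 to 11657 in the controls and 3451 to 4671 in the treated RNA, without overlap.

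Markers of several cell types rose as well, beside 18.1% of all genes. All 8 epithelium markers rose (median 0.35 ± 0.08), among them Cdh1 (E-cadherin, 0.34 ± 0.07, adjusted p = 0.00151) and Cdh3 (P-cadherin, 0.93 ± 0.14, adjusted p = 9.54e-05), with a summed signal of 41977 to 55266 in the controls and 48499 to 69653 in the treated RNA. Of 6 nephric duct and tubule markers 5 rose (0.28 ± 0.09), with Emx2 at 0.63 ± 0.15 and Gata3 at 0.56 ± 0.25, and their sum was 5815 to 9534 and 8840 to 12918. Of 6 endothelium markers 4 rose (0.18 ± 0.02), including Cdh5 (VE-cadherin, 0.26 ± 0.17, adjusted p = 0.00972), and their sum was 11949 to 16825 and 13520 to 19284. Some of these calls rest on single arrays, as Krt19 was lost without array 2 (0.22) or 3 (0.18), Cldn4 without array 3 (0.21), Lhx1 without array 1 (0.16), Pax8 without array 3 (0.34), Kdr without array 2 (0.14), 3 (0.11) or 4 (0.16) and Pecam1 without array 3 (0.17) or 4 (0.19). The part of these cells in the rises of cadherins was not tested. Medians of the classical (0.20) and delta genes (0.27) lay in the range of those of the cell type lists, -0.05 to 0.35. This range also holds the median of all genes, 0.00, so that nothing follows from the comparison.

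The median of the 6 mesenchyme markers was 0.31, 0.05, 0.00 and 0.08 on arrays 1 to 4 (0.11 ± 0.14). Of these, 1 rose (Pdgfrb, 0.80 ± 0.07) and 1 fell (Tbx18, a factor of the ureteric mesenchyme, -0.74 ± 0.26), and the summed signals of 82301 to 119238 and 93482 to 122496 overlapped. Without array 3, Col1a1 (0.40) and Col1a2 (0.23) rose too. Of 6 nephron progenitor markers 5 rose, led by Six2 (1.14 ± 0.27), and Crym fell (-0.96 ± 0.45), with sums of 11242 to 14125 and 12188 to 16070. The call of Cited1 was lost without array 1 (0.18), 2 (0.11) or 3 (0.14), that of Osr1 without array 3 (0.27) and that of Eya1 without array 1 or 4 (0.15). Of the neural crest markers Erbb3 rose by 0.43 ± 0.09, and Sox10 passed the test only without array 1 (-0.26). Of 6 blood markers 3 rose (0.20 ± 0.14), with sums of 33420 to 53016 and 44210 to 64486. The test was passed by 33.3% of mesenchyme, 100% of nephron progenitor, 50% of neural crest and 50% of blood markers. Among all genes the share was 33.1%. Of the 8 cell type lists, 1 had a median below 0, that of the skeletal myoblast genes (-0.05 ± 0.17).

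Different probes of a gene mostly had the same sign. Above background were 21 further probes of 15 genes, of which 20 had the sign of the probe used, including all 16 for genes with a call. Of the 43 calls in the family, 17 were kept under each alternative that could be run for the gene (16 alternatives, of which the limit on the mean signal leaves out dim genes such as Cdh12, Pcdhb2, Pcdhb5 and Pcdhb13) and 10 were lost with the rounded fold changes of the series table alone, among them Cdh9, Cdh10, Cdh22 and Pcdh7. The calls of Pcdh8, Pcdh18, Pcdh19 and Cdh6 were kept under all. Pcdh17 was lost with that table and with the 8 channels treated as separate samples (adjusted p = 0.0904 and 0.144 in limma). Without this pairing on the array, Cdh4 (adjusted p = 0.12) and Pcdhb19 (adjusted p = 0.0953) were lost too, as were 11 of the 13 genes whose call depended on 1 array. Leaving out 1 array removed the calls of the 13 genes named above, and 0 of the 43 changed direction.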

How the data were processed

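RNA of pooled ureters was labelled and hybridised by the authors to two-colour Agilent arrays. The deposited scanner files (Agilent Feature Extraction 10.7.3.1, probe positions on mm9) hold raw and processed spot intensities and a log10 ratio of red over green, used here only to check the direction. The deposited series table is a score, a signed fold change rounded to 0.1 whose scaling and centring are not stated, and it served as an alternative. Its direction, treated over control, was settled by comparison with the processed intensities, and its median was 1 on each array.

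Raw intensities were corrected with normexp (offset 50, which understates the changes of dim probes) and normalised by loess (span 0.3) in limma 3.58.1 (R 4.3.3). Control and outlier spots were then left out, the 4 spots of a probe averaged and the brightest passing probe of a gene used. A probe passed if more than 0.5 of its spots were well above background in all control or all treated channels. Log2 ratios were fitted with limma (lmFit, eBayes), with a dye term, for 22455 genes. P-values are two-sided and Benjamini-Hochberg adjusted, with 0.05 as threshold. No spot was saturated, and in each channel 75.1% to 80.0% of probes exceeded the background clearly, and the number of arrays limits the precision. Signals quoted are processed intensities.

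The replicate number names an array, and the 2 channels of an array are the pair. No annotation of mm9 was used, so that no exon or UTR was assigned to a probe. Genes, classes and lists were chosen with earlier results of these data known, and are described by counts and medians without a test of their own. Values on every array are given for members past the test with a mean of 0.4 or more and for the most intense of each class, and list genes are named if past the test at 0.4 or more or if they define a list. List genes named beside a call lost or gained without an array, and Setdb1, Rad21, Ctcf, Smchd1, Psen2 and Jup, were named outside this rule, after their values were seen. Another offset, other normalisations, filters, probe choices, models and leaving out each array were tried as alternatives.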

Additional observations from a re-analysis of the deposited data

Results flagged for a closer look

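In 7 of 162 genes and 3 of 28 lists examined, 1 array lay apart from the other 3 by more than Dixon's 95% limit for 4 values, where chance gives about 1 in 20. Array 3 was apart for Pcdh17 (-0.76), Pcdhgb1 (-0.30), Cdh3 (0.73) and Psen2 (0.52). Array 2 was apart for Pcdhb22 (-0.27), whose other values were all near -0.33, for Jup (-0.078), and for the medians of the endothelium markers (0.15) and of the nephric duct and tubule markers (0.42). Array 1 was apart for Cdhr1 (0.34) and for the median of the gamma cluster (-0.026).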

How the results depend on the processing

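The class medians kept their sign under all 16 alternatives, and the median of all genes stayed near 0. Of these, 1 was added after seeing the data, that without the probes at the 3′ ends of the alpha and gamma clusters. With the series table the family held 12 falls and 6 rises (classical 0 and 4, delta 1 and 2, clustered 10 and 0), 19 partner and marker genes rose, and the classical median was 0.29. With a mean signal over 100 there were 16 falls (classical 0, clustered 13), and the medians were 0.37 (classical), -0.23 (clustered) and -0.023 (all members). Without the pairing of channels (no replicate block), 11 genes of the family and 22 partner and marker genes rose, 1 delta gene fell and 0 clustered genes rose. Over all genes there were 3360 falls and 4068 rises in the main fit. The series table gave 2050 and 1833, and a mean signal over 100 gave 2677 and 3043 among 15529 genes. Dropping the pairing gave 2065 and 2040, and dropping the dye term 2551 and 2965. Without a dye term 13 clustered genes fell and 0 rose. The rise of 1 clustered gene was also 0 with offset 16, processed signals, median centring, no filter, all probes of a gene averaged, outliers kept and without the probes at the 3′ ends of the alpha and gamma clusters. Processed signals gave medians of 0.25 (classical) and -0.25 (clustered), and averaged probes 0.24 (classical). The cause was not tested. Without 1 array in turn, 20 to 26 genes fell and 12 to 17 rose (classical 2 to 2 and 7 to 8, delta 2 to 2 and 5 to 6, clustered 15 to 21 and 0 to 1), 36 to 38 partner and marker genes rose and 11 to 12 fell, and the medians were 0.19 to 0.21, 0.25 to 0.29 and -0.20 to -0.18, and -0.11 to -0.08 over all members. All arrays share a slide and a scan, so that no fit with slide or scan as a block could be run. Changes in genes near the background limit, such as those at Pcdhb1 (9.05 in the controls), cannot be measured well at this signal.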
